A study of Mus musculus with 6 samples.

Results

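Sterol and fatty acid metabolism genes were measured in the VMH, the ventromedial nucleus of the hypothalamus, whose neurons take part in the control of body weight and glucose. The genes were chosen by name: all array probes of 42 genes, kept where the detection p was below 0.05 on at least 3 of the 6 arrays. The set holds 19 genes of sterol synthesis and its regulators, 11 of fatty acid synthesis and 12 of fatty acid uptake, oxidation and its regulators. Of the 42 genes, 39 had a probe named in the annotation, with 68 probes in all, and 35 had at least 1 tested probe, with 51 tested probes among the 20006 tested on the array. One genotype, called KO here, had FoxO1 knocked out specifically in the VMH, and the other was wild type (WT). Both genotypes had a mixed strain background and received no treatment. Each genotype had 3 Illumina BeadChip arrays, and every array was hybridized with a pool of RNA from 3 mice; a replicate is thus a pool. The promoter that drove the deletion and the age of the mice are not given in the sources used here, and the dissected tissue also contains cells in which FoxO1 was not targeted.

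The transcription factor FoxO1 leaves the nucleus when insulin signals, and in liver it is known to oppose fat synthesis. Cholesterol in the brain is made locally through the mevalonate pathway, whose genes are driven by SREBP-2 (encoded by Srebf2) and held back by INSIG proteins when sterols are plentiful. SREBP-1 (Srebf1) drives genes of fatty acid synthesis, while PPAR receptors and the coactivator PGC-1alpha (Ppargc1a) drive fatty acid oxidation. In the hypothalamus malonyl-CoA, the product of acetyl-CoA carboxylase, is known as a fuel signal that bears on food intake.

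The promoters of the sterol genes shared a sequence feature that played no part in choosing them. RefSeq promoter windows (GRCm38.p6, 250 bases before to 50 after a start site) were held for 35 of the 42 genes. The CCAAT box, bound by NF-Y, which acts beside SREBP, was searched as CCAAT on both strands. It occurred in a window of 15 of 16 sterol synthesis genes (93.8%), 5 of 8 fatty acid synthesis genes (62.5%) and 3 of 11 fatty acid oxidation genes (27.3%), against 41.1% of all 27025 genes with a window. Counted per window, these shares were 76.2%, 55.6% and 27.3%, against 37.4% of all windows. The sterol regulatory element TCACNCCAC was found in Hmgcs1 alone among the members (1.44% of all genes). Its relaxed form TCACNCNAC was found in Hmgcs1 and Nsdhl, 12.5% of the sterol synthesis genes, against 3.15% of all genes. The E-box CACGTG was found in Insig1, Dhcr7, Sc5d and Elovl5 (8.09% of all genes). The FoxO element TGTTTAC was found in 1 member, Elovl6, 123 bases before the start site (4.05% of all genes). Such a match describes the letters of the window only. Below are the windows of 3 sterol genes, with CCAAT boxes of either strand in capitals, and of Elovl6 with the FoxO element in capitals. For these 3 of 15 tested sterol genes all KO arrays lay above the WT arrays. The share over all tested probes was 8.84%. As 15 of 16 sterol genes hold the box, it does not set these 3 apart. These 4 windows were chosen after the values were seen. Each is written 5′ to 3′ along its gene: Pmvk at chr3:89454291-89454590 (plus strand), Idi1 at chr13:8885356-8885655 (plus strand), Sc5d at chr9:42264251-42264550 (minus strand) and Elovl6 at chr3:129532136-129532435 (plus strand).
Pmvk: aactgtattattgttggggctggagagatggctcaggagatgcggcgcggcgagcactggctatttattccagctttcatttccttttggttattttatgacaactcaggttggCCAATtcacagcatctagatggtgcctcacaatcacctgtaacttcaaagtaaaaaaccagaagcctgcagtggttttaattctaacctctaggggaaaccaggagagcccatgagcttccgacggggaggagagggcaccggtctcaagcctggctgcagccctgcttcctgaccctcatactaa
Idi1: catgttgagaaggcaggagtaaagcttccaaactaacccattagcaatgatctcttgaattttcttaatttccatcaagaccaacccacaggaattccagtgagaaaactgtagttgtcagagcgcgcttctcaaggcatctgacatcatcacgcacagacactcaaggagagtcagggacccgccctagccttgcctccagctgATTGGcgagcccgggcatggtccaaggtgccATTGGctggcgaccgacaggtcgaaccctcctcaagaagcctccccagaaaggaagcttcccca
Sc5d: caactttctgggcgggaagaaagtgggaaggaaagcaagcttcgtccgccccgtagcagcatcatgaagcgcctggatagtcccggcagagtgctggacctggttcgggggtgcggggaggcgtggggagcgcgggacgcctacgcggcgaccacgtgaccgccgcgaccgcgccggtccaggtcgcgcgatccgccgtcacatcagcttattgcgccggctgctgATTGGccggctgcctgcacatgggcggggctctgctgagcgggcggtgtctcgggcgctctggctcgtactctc
Elovl6: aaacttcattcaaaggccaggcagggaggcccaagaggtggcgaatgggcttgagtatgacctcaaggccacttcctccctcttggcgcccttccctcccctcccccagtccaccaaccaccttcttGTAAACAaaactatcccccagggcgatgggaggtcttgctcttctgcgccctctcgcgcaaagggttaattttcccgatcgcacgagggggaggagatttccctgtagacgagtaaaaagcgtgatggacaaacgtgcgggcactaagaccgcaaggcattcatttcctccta

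**Figure D1:**
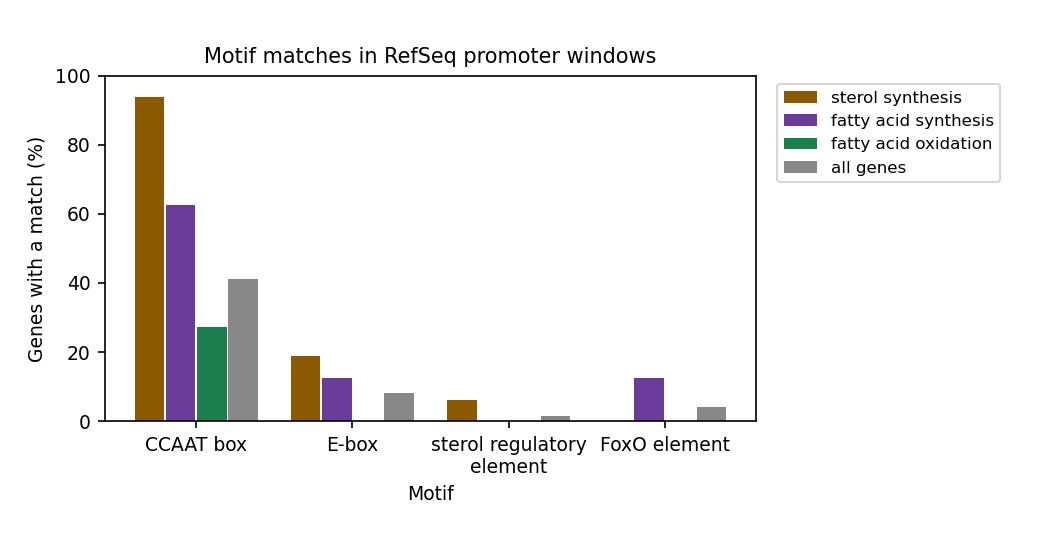
Share of genes (%, vertical axis) with a match of each motif (horizontal axis) in a RefSeq promoter window, for the sterol synthesis, fatty acid synthesis and fatty acid oxidation genes and for all genes. The relaxed sterol regulatory element is not shown. The CCAAT bar of sterol synthesis stands at 93.8%, against 41.1% for all genes.

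The arrays as a whole set the frame for the values below, which are levels on a log2 scale after background correction and normalization. Between 18771 and 20445 probes were detected per array. The array KO 1 stood apart from the rest, its profile correlating with those of the remaining arrays at 0.954 on average, against 0.977 to 0.981 for the other 5. Of all tested probes, 69.6% had their lowest or highest value on KO 1. Foxo1 itself was read at 6.47, 7.29 and 7.25 in KO and at 7.62, 7.49 and 7.84 in WT on its brighter probe, with no overlap (difference -0.65, SE 0.24, adjusted p = 0.582), and its dimmer probe differed by 0.34 (SE 0.35, adjusted p = 0.678). The position of these probes relative to the deleted part is not given, so neither checks the labels. All 10 listed markers of VMH neurons were detected. Their mean level was 10.37, 10.87 and 10.56 in KO and 10.76, 10.67 and 10.58 in WT, lowest on KO 1. Also detected were 12 of 14 markers of the exocrine pancreas, a tissue foreign to the sample. Their summed signal was 76545, 33794 and 15032 in KO and 58156, 10174 and 26338 in WT, highest on KO 1. The part of this foreign tissue in the values below was not tested. Of 6 adipocyte markers, the 5 with a named probe (Adipoq, Lep, Plin1, Cidec and Fabp4) were detected on no array.

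None of the 51 member probes passed the test of KO against WT (limma, Benjamini-Hochberg over all tested probes; lowest adjusted p = 0.582), where 1 of 20006 tested probes passed (0.00500%). At an unadjusted p under 0.05 there was 1 member probe, of Acadl, higher in KO, against 7.58% of all tested probes (3.77% higher and 3.80% lower in KO). The 95% interval of the difference, not adjusted for the number of probes, stayed within 1 log2 of 0, a 2-fold change, for 48 of 51 member probes (94.1%), and it did so for 85.3% of all tested probes. With the brightest tested probe standing for each gene, the KO and WT arrays did not overlap for 6 of 35 genes (17.1%), 5 above and 1 below WT, against a background of 15.1% (8.84% above and 6.24% below). The share was thus near that of the array as a whole. In bulk RNA, fewer cells of a type and less RNA per cell cannot be told apart.

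**Figure D2:**
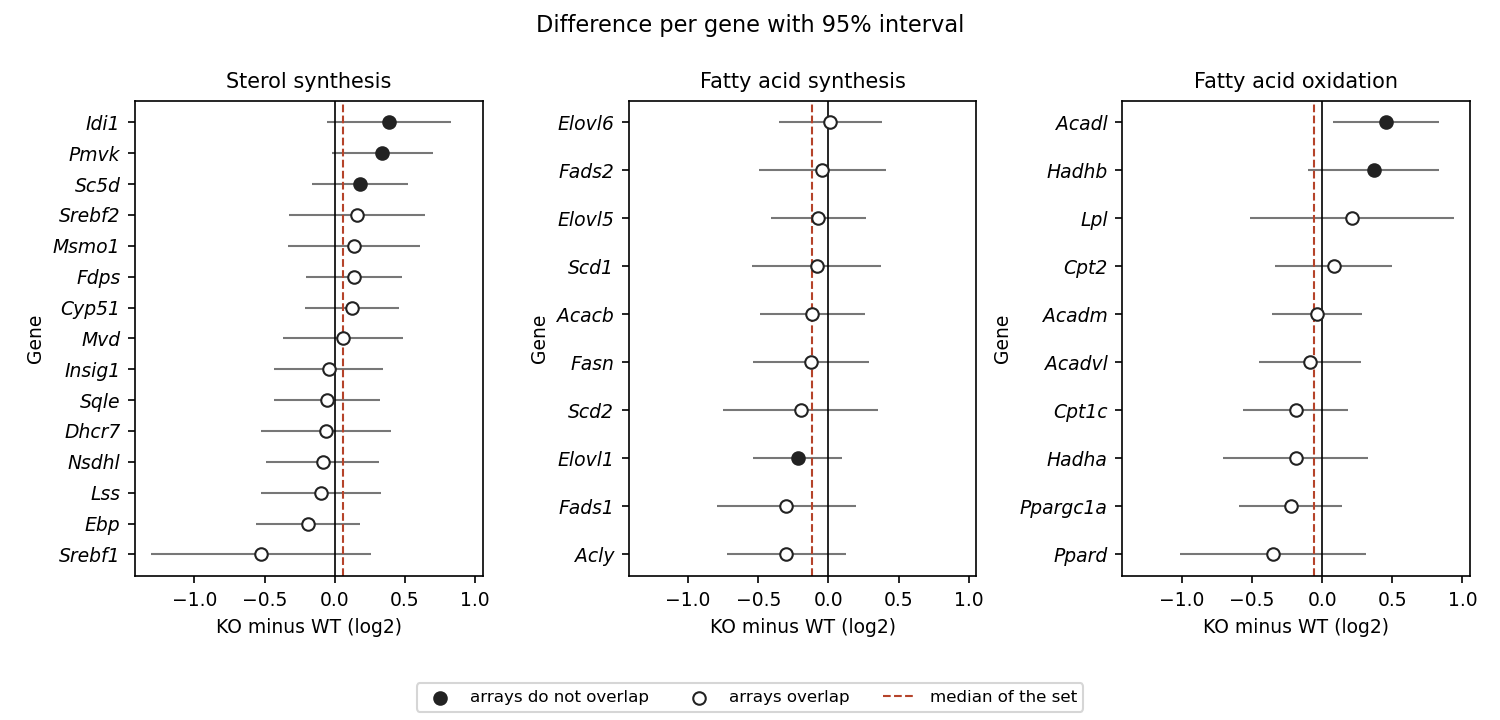
KO minus WT difference (log2, horizontal axis) of each gene by its brightest tested probe, with its 95% interval from limma; filled points mark genes whose KO and WT arrays do not overlap and the dashed line is the median of the set. The medians are 0.059 for sterol synthesis, -0.12 for fatty acid synthesis and -0.060 for fatty acid oxidation, and the filled points are Idi1, Pmvk, Sc5d, Elovl1, Acadl and Hadhb.

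The enzymes of sterol synthesis gave small differences of both signs. Of 15 tested genes 8 read higher and 7 lower in KO, with a median of 0.059 log2, against 0.021 over all tested probes. The smallest unadjusted p-values of the set were those of Pmvk and Idi1. Pmvk, which phosphorylates phosphomevalonate, read 8.69, 8.37 and 8.37 in KO and 8.14, 8.18 and 8.10 in WT. Every KO array lay above every WT array, with KO 1 the highest, and the difference was 0.34 (SE 0.16; 1.26-fold; adjusted p = 0.582). Idi1, which isomerizes isopentenyl diphosphate, read 6.49, 5.87 and 6.03 in KO and 5.82, 5.62 and 5.78 in WT. The genotypes were again apart, by 0.043 at the nearest arrays, and the difference was 0.39 (SE 0.19; 1.31-fold; adjusted p = 0.582). Leaving out KO 1 gave 0.21 for Idi1 and 0.23 for Pmvk. Signals with no background correction gave 0.13 for Idi1 and 0.24 for Pmvk.

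Other tested enzymes up to lanosterol overlapped between genotypes. Fdps, which makes farnesyl diphosphate, read 11.57, 11.31 and 11.44 in KO and 11.24, 11.36 and 11.32 in WT on its brighter probe (0.14), while its dimmer probe pointed the other way (-0.41). Sqle, the squalene epoxidase that is a rate-limiting step, differed by -0.055 and -0.043 on its 2 tested probes. Lss, the cyclase that makes lanosterol, differed by -0.096, and Mvd, which decarboxylates the mevalonate product, by 0.059. No named probe was held here for Hmgcs1, Fdft1 or Acat2, and the Mvk probe was detected on no array.

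Of the enzymes that turn lanosterol into cholesterol, Sc5d, the sterol desaturase, read 8.34, 8.25 and 8.06 in KO and 8.03, 8.04 and 8.05 in WT. The WT arrays lay within 0.014 of each other and all KO arrays lay above them, the nearest by 0.016 (difference 0.18, SE 0.15, adjusted p = 0.629). Ebp, the sterol isomerase, read 8.71, 8.29 and 8.43 in KO and 8.64, 8.70 and 8.66 in WT. KO 1 was its highest array and the other KO arrays its lowest, so the difference was -0.19 (SE 0.16; adjusted p = 0.63) with all arrays and -0.31 without KO 1. Cyp51 and Msmo1, the demethylating enzymes, differed by 0.12 and 0.14, and the Msmo1 value was -0.079 without KO 1. Dhcr7, the last reductase, differed by -0.063. Nsdhl, the dehydrogenase, had 4 tested probes with differences of -0.27 to -0.037.

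None of the regulators of sterol synthesis passed the test. Srebf1 was counted in this set, although its product SREBP-1 drives genes of fatty acid synthesis. It read 5.60, 7.14 and 6.48 in KO and 6.92, 7.11 and 6.77 in WT. KO 1 was far below the rest and KO 2 was the highest array, so that the difference of -0.53 (SE 0.34; adjusted p = 0.585) became -0.12 without KO 1. Srebf2 had 2 tested probes. The brighter probe read 8.49, 8.07 and 7.74 in KO and 8.07, 7.77 and 7.98 in WT, and the dimmer one 7.07, 8.03 and 8.26 in KO and 8.13, 8.07 and 8.40 in WT. KO 1 was thus the highest array on one probe and the lowest on the other, and the differences were 0.16 (SE 0.21) and -0.41 (SE 0.29). Insig1, which retains the SREBP complex in the endoplasmic reticulum, read 8.12, 7.83 and 8.01 in KO and 8.23, 7.83 and 8.02 in WT. The genotypes overlapped fully (-0.043, SE 0.17, adjusted p = 0.923), and its other tested probes differed by 0.18 and 0.047.

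**Figure D3:**
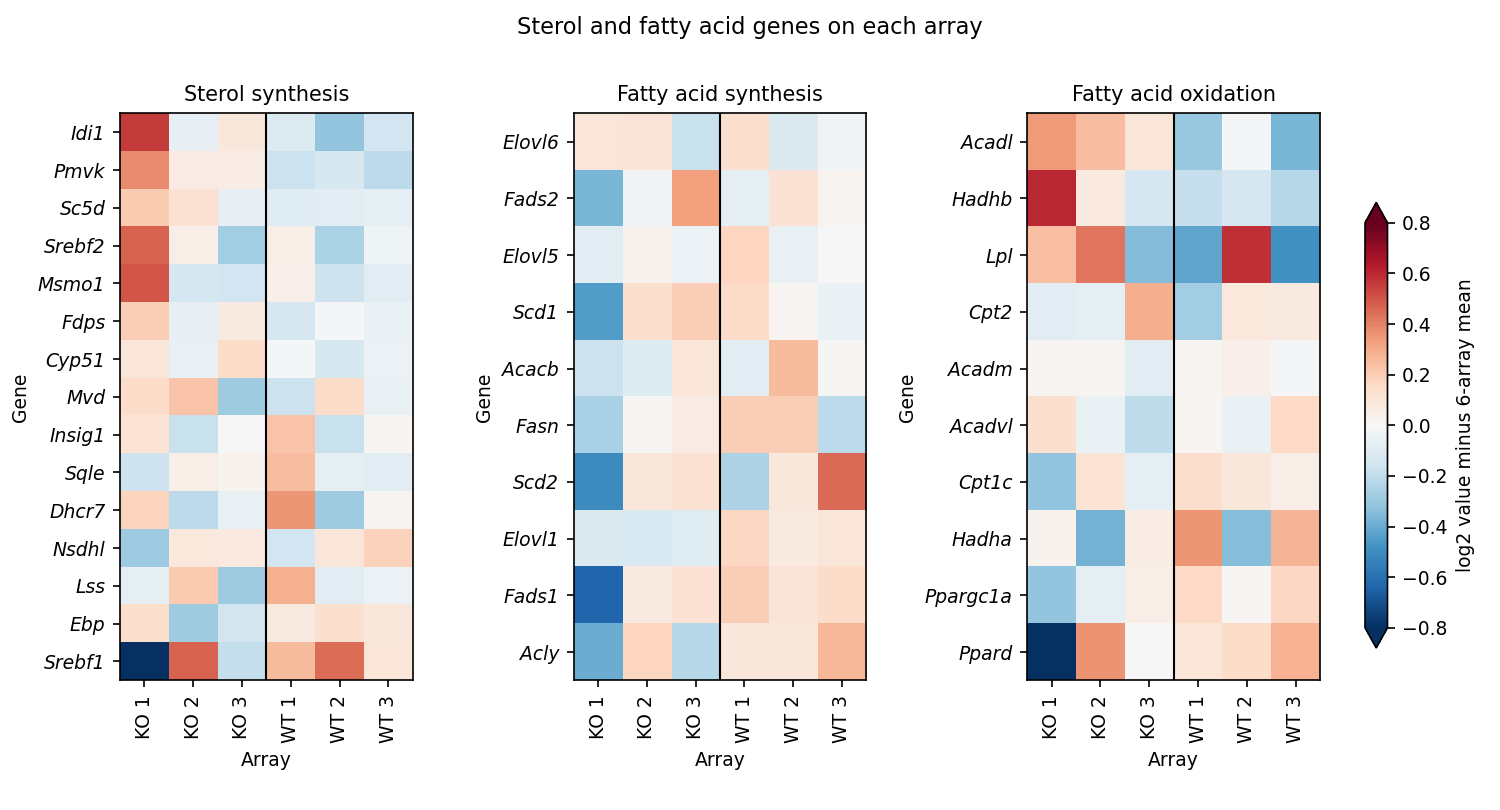
Level of each gene on each array as the log2 value minus the gene's mean over 6 arrays (colour), for the KO arrays left of the line and the WT arrays right of it, with genes ordered by their KO minus WT difference. The KO 1 column holds the deepest colours, with Srebf1, Ppard and Fads1 low and Hadhb and Idi1 high.

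Genes of fatty acid synthesis read lower in KO in 9 of 10 cases, with a median of -0.12, where 47.1% of all tested probes read lower. None passed the test, and KO 1 stood lowest in most of them: 8 of the 10 genes (80.0%) had their lowest value there, against 33.0% of all tested probes. Without KO 1 the median was -0.037 and 7 of 10 genes read lower. On KO 1 the mean level of the 5 detected neuron markers was 11.07, below the 11.42 and 11.57 of the other KO arrays and the 11.46 to 11.51 of WT. Snap25, a sixth neuron marker, was detected on no array. The summed signal of these markers was 23360 to 33459 in KO and 32250 to 34153 in WT. That of 8 detected markers of oligodendrocytes, the myelin-forming cells that are rich in sterol and fatty acid synthesis, was 28292 to 31471 in KO and 28455 to 32397 in WT; Ermn was detected on no array. Their mean level was highest on KO 1, at 11.12, against 10.76 on each of the other KO arrays and 10.76 to 10.89 in WT. The part of cell composition in the fatty acid values was not tested.

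Acly, which makes the cytosolic acetyl-CoA for both pathways, read 11.80, 12.37 and 11.97 in KO and 12.29, 12.29 and 12.46 in WT. KO 1 and KO 3 lay below all WT arrays and KO 2 within them (difference -0.30, SE 0.18, adjusted p = 0.583; -0.18 without KO 1). Acacb, the mitochondrial form of acetyl-CoA carboxylase, read 7.04, 7.11 and 7.30 in KO and 7.12, 7.46 and 7.22 in WT, a difference of -0.12 (SE 0.16; adjusted p = 0.762). The probe of Acaca, the cytosolic form, was detected on no array. Fasn, the fatty acid synthase, read 5.94, 6.21 and 6.27 in KO and 6.40, 6.40 and 5.99 in WT. The genotypes overlapped, and the difference was -0.12 (SE 0.18; adjusted p = 0.768).

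KO 1 was the lowest array for all 4 desaturases, by the probe that stands for each gene. Fads1, the delta-5 desaturase of polyunsaturated fatty acids, read 12.65, 13.35 and 13.40 in KO and 13.48, 13.39 and 13.43 in WT. KO 1 was well below the other 5 arrays, which lay within 0.13 of each other; the difference was -0.30 (SE 0.22; adjusted p = 0.603), and -0.055 without KO 1. Scd2, the main stearoyl-CoA desaturase of mouse brain, read 9.70, 10.30 and 10.33 in KO and 9.96, 10.30 and 10.66 in WT (-0.20, SE 0.24, adjusted p = 0.729; 0.0079 without KO 1). Scd1, its close relative, read 11.36, 11.94 and 12.003 in KO and 11.96, 11.83 and 11.76 in WT. Here KO 1 was the lowest and KO 3 the highest array, and the difference of -0.082 (SE 0.20; adjusted p = 0.868) was 0.12 without KO 1. Fads2, the delta-6 desaturase, differed by -0.044 and 0.070 on its tested probes.

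Of the elongases, Elovl1, which extends saturated very long chains, was the 1 gene of the 35 whose KO arrays all lay below the WT arrays. It read 8.04, 8.04 and 8.06 in KO and 8.32, 8.23 and 8.25 in WT. The nearest arrays of the 2 genotypes were 0.16 apart, and the KO arrays lay within 0.025 of each other, KO 1 included. The difference of -0.22 (SE 0.14; 1.16-fold lower; adjusted p = 0.584) was -0.22 without KO 1 as well and -0.15 without background correction. The other tested Elovl1 probes differed by -0.14, 0.089 and -0.036. Elovl5, which extends polyunsaturated chains, differed by -0.072. Elovl6, the member with a FoxO element in its window, read 9.98, 9.98 and 9.71 in KO and 10.01, 9.76 and 9.85 in WT. These arrays overlapped, and the difference was the smallest of the 35 genes at 0.014 (95% interval -0.35 to 0.38).

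**Figure D4:**
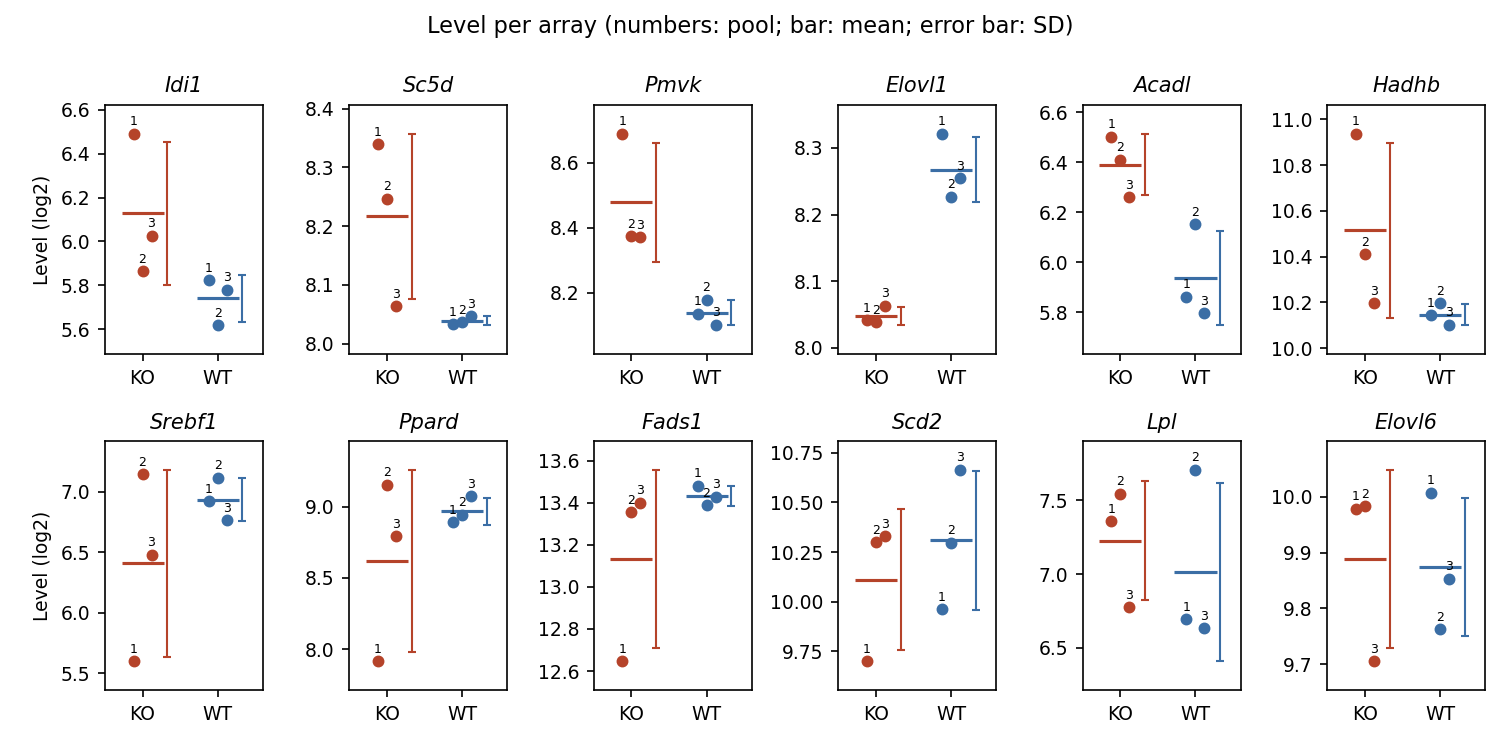
Level (log2, vertical axis, scaled per panel) of 12 genes on each KO array and each WT array, with pool numbers, the mean as a bar and the SD as an error bar (n = 3 each). The upper row shows the 6 genes whose genotypes did not overlap, Elovl1 with KO at 8.04 to 8.06 and WT at 8.23 to 8.32 among them; in the lower row Srebf1, Ppard, Fads1 and Scd2 have KO 1 as the lowest array.

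Fatty acid oxidation genes were mixed, with 4 of 10 tested genes higher and 6 lower in KO and a median of -0.060. Acadl, the long-chain acyl-CoA dehydrogenase, had the smallest unadjusted p of all members. Its brighter probe read 6.50, 6.41 and 6.26 in KO and 5.86, 6.15 and 5.80 in WT. Every KO array lay above every WT array, and the difference was 0.45 (SE 0.16; 1.37-fold; adjusted p = 0.582; 0.40 without KO 1). Without background correction it was 0.16, and the dimmer tested probe read -0.061. Hadhb, the thiolase subunit of the mitochondrial trifunctional protein, read 10.94, 10.41 and 10.20 in KO and 10.14, 10.20 and 10.10 in WT. KO 3 lay above WT 2 by only 0.0019, and the difference of 0.37 (SE 0.21; adjusted p = 0.582) was 0.16 without KO 1. Hadha, the partner subunit, differed by -0.19 (SE 0.23).

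The dehydrogenase Acadm, which acts on medium chains, had the narrowest range of all members, from 11.09 to 11.20 in KO and from 11.16 to 11.22 in WT (difference -0.035, 95% interval -0.36 to 0.29). Acadvl, which acts on very long chains, differed by -0.085 and -0.068 on its tested probes. Cpt2, which releases acyl-CoA inside mitochondria, had 3 tested probes with differences of -0.056 to 0.24. Cpt1c, the brain form of carnitine palmitoyltransferase, which lies in the endoplasmic reticulum and binds malonyl-CoA, read 7.13, 7.56 and 7.37 in KO and 7.59, 7.54 and 7.50 in WT (-0.19, SE 0.16, adjusted p = 0.634; -0.078 without KO 1). Neither probe of Cpt1a, the mitochondrial form that gates oxidation in liver, was detected on any array.

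Regulators of oxidation and the uptake gene Lpl did not pass the test either. Ppard, the PPAR form that is widespread in brain, read 7.92, 9.15 and 8.79 in KO and 8.89, 8.94 and 9.07 in WT. KO 1 was the lowest and KO 2 the highest array; the difference was -0.35 (SE 0.29; adjusted p = 0.629) and 0.0059 without KO 1. Ppargc1a read 7.76, 8.004 and 8.13 in KO and 8.24, 8.09 and 8.25 in WT, with KO 3 above WT 2 (-0.23, SE 0.16, adjusted p = 0.598; -0.12 without KO 1). The Ppara probe was detected on no array. Lpl, the lipase that frees fatty acids from lipoproteins, read 7.36, 7.55 and 6.77 in KO and 6.70, 7.71 and 6.63 in WT. Its arrays fell into a high group (KO 1, KO 2 and WT 2) and a low group (KO 3, WT 1 and WT 3) that cut across genotype, and the difference was 0.21 (SE 0.32; adjusted p = 0.774).

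Across the arrays the sets did not move as one. On KO 1 the median deviation from the 6-array mean was 0.15 for sterol synthesis, -0.31 for fatty acid synthesis and 0.023 for fatty acid oxidation, where it was 0.031 over all tested probes. On the other arrays these medians lay between -0.092 and 0.14. Of the sterol genes 7 of 15 (46.7%) had their highest value on KO 1, against 36.7% of all tested probes, and none of the 10 fatty acid synthesis genes did. Together 23 of 35 genes (65.7%) were lowest or highest on KO 1, close to the 69.6% of all tested probes.

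**Figure D5:**
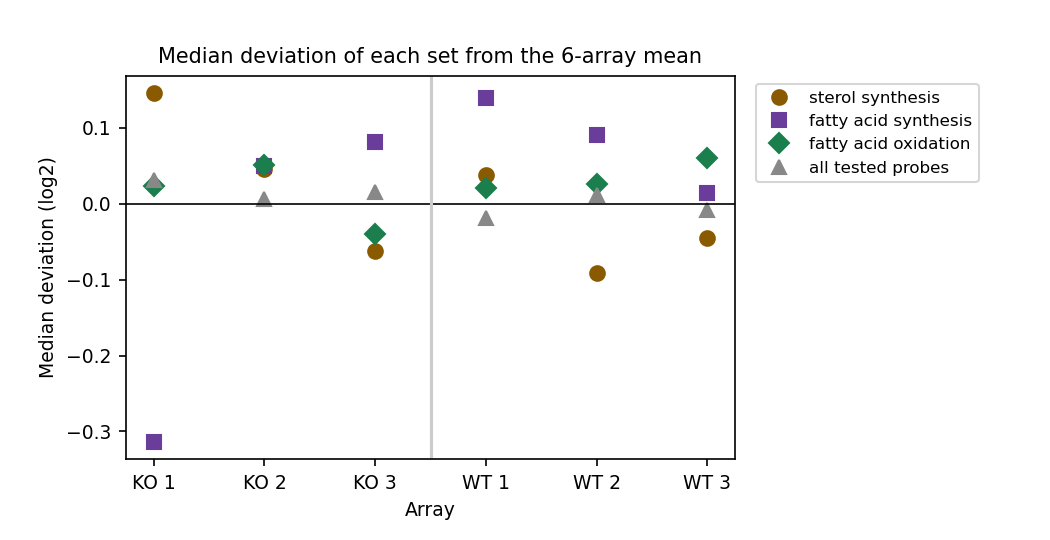
Median deviation from the 6-array mean (log2, vertical axis) of each gene set and of all tested probes on each array, KO left and WT right. Fatty acid synthesis genes lie at -0.31 on KO 1 and between 0.014 and 0.14 on the other 5 arrays.

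Other genes of these pathways, listed by their function, gave no calls either. Of 20 tested sterol genes that are no members, such as transporters and sensors, 10 read higher and 10 lower in KO (median 0.0068). Those with the smallest p were Osbp, an oxysterol-binding transfer protein, and Scap, the escort of SREBP. Osbp read 9.01, 9.36 and 9.03 in KO and 9.51, 9.50 and 9.35 in WT (-0.32, SE 0.16). Scap read 7.38, 8.50 and 8.22 in KO and 8.40, 8.67 and 8.56 in WT (-0.51, SE 0.28, and -0.18 without KO 1). Its dimmer probe read 5.54, 6.05 and 6.77 in KO and 7.50, 6.37 and 7.48 in WT, with KO 3 above WT 2. That probe differed by -1.001 (SE 0.38), by -0.71 without KO 1 and by -0.44 without background correction. Adjusted p was 0.582 for each.

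Of 28 tested genes of chain building and esterification, 13 read higher and 15 lower (median -0.015). Lpin1, the phosphatidate phosphatase, read 6.96, 7.66 and 7.50 in KO and 7.90, 7.86 and 7.90 in WT, all KO arrays below all WT arrays (-0.51, SE 0.20, adjusted p = 0.582; -0.31 without KO 1). Its other tested probe differed by -0.37. Agpat3, an acyltransferase of phospholipid synthesis, read 8.23, 8.46 and 8.26 in KO and 7.84, 8.10 and 7.998 in WT, all KO arrays above (0.34, SE 0.16, adjusted p = 0.582). Of 40 tested genes of oxidation and uptake, 26 read higher and 14 lower (35.0% lower, against 47.1% of all tested probes), with a median of 0.094. In this list 22 genes were highest on KO 1, where 36.7% of all tested probes were. Without KO 1 the median was 0.056 and 15 of the 40 genes read lower. Fabp7, a fatty acid binding protein of astrocytes, read 6.26, 5.79 and 5.80 in KO and 5.50, 5.15 and 5.24 in WT. It was detected on all 3 KO arrays but on only 1 WT array, so that it passed the filter through KO and its WT level is mostly not above background. The fitted difference of 0.65 (SE 0.19; adjusted p = 0.582) was 0.20 without background correction. The summed signal of the 8 astrocyte markers, all detected, was 44877 to 51157 in KO and 45812 to 48630 in WT. Their mean level, which weighs each marker alike, was 11.18, 10.95 and 10.96 in KO and 10.88, 10.89 and 10.76 in WT, every KO array above every WT array. The part of astrocyte content in the Fabp7 value was not tested. Cpt1b, the muscle form of carnitine palmitoyltransferase, read 5.47, 5.62 and 5.50 in KO and 5.85, 5.86 and 5.96 in WT (-0.36, SE 0.14, adjusted p = 0.582; -0.11 without background correction), and was detected on 2 KO arrays and all 3 WT arrays.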

How the data were processed

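Total RNA of the VMH was hybridized to Illumina Mouse-6 V2 BeadChips. The submitters' processing notes name Partek but no normalization. Per the file headers, each probe of the deposited table has a signal intensity and a detection p-value on every array. The intensity values deposited by the authors were already quantile-normalized: once sorted, they differ between arrays by 0.4 or less. The authors' deposited value table holds the log2 of the same signals within 5e-05, without centring (median 7.30 or 7.31 on each array).

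The signals went through neqc in limma 3.58.1 (R 4.3.3): background by normexp from the detection p, an offset of 16, quantile normalization and log2. Of 45281 probes, the 20006 detected (p under 0.05) on 3 or more arrays were tested with lmFit and eBayes (two-sided, no covariates) and Benjamini-Hochberg adjustment at 0.05. The limma test was also run on simulated arrays with independent noise and no outlying array. That run thus does not cover an array that stands apart, such as KO 1. Symbols come from the platform annotation and were checked by Entrez ID against RefSeq: 34885 probes had 1 symbol, 18 several and 10378 none, and the last 2 kinds were not named. The brightest tested probe stood for a gene. SE and intervals are from limma; SD and n are over 3 arrays, whose number limits the precision.

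The members and lists were chosen with earlier results of these data known. Genes named with each array were the 5 with the smallest p per set and a list of regulators and gatekeepers. Beside them, the remaining members were given in brief. For lists of other pathway genes the 2 with the smallest p were named. Markers of tanycytes, microglia, endothelium and hepatocytes were also read, with mean levels of 6.98, 7.81, 8.07 and 7.03 in KO and 6.85, 7.49, 8.26 and 7.31 in WT. The hepatocyte level rests on 3 of 6 markers, as Alb, Serpina1a and Fgb were detected on no array. The tanycyte level rests on 4 of 5 markers, without Rax, which was detected on fewer than 3 arrays. Alternatives were background, offset, normalization, table, filter, array weights, intensity trend, replicate block, threshold, probe choice and each array left out. The sources name no pairing of the pools, so the main test did not take the replicate numbers as pairs. Deviations from the group means correlated at 0.146, 0.0037 and 0.402 between same-numbered KO and WT arrays. Between KO and WT arrays of different number the correlations were -0.289 to 0.104. A planned comparison of protein sequences was not run.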

Additional observations from a re-analysis of the deposited data

How the results depend on the processing

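No member probe passed the adjusted threshold under any of the alternatives tried. The single call among all tested probes was lost (0 calls) with no background correction, with an offset of 50, with cyclic loess, with the authors' value table, with no filter, with the strict filter (detection p under 0.01 on 6 arrays), with the intensity trend and with the replicate block, and leaving out 1 array gave 0 to 1 calls. The authors' value table repeats the setting with no background correction, as it holds the log2 of the same signals. At an unadjusted p under 0.05 there were 1516 tested probes and 1 member probe. The sterol synthesis median of 0.059 was -0.035 with array weights and -0.049 with the mean over a gene's tested probes, and 0.0014 to 0.098 with 1 array left out. The fatty acid oxidation median of -0.060 was 0.015 without a filter, -0.096 with array weights and -0.077 to -0.022 with 1 array left out. That of fatty acid synthesis stayed negative throughout, at -0.21 to -0.037 with 1 array left out, and 7 to 10 of its 10 genes read lower (8 of 9 under the strict filter). Differences that changed sign were those of Srebf2 (-0.074 with array weights, -0.036 to 0.34 with 1 array left out, the lowest without KO 1), Fasn (0.028 with array weights), Scd1 (0.12 with array weights, -0.20 to 0.12 with 1 array left out), Scd2 (-0.37 to 0.0079), Ppard (-0.61 to 0.0059; as for Scd1 and Scd2, the highest without KO 1) and Insig1 (-0.14 to 0.059; 0.036 without KO 2 and 0.059 without WT 1). The other 20 of 26 named probes kept their sign. Where no cause follows from the alternative itself, the cause was not tested. In the replicate block, which changed no member's call, the numbers are not known to pair the pools. Of 6 arrays 5 correlated best with their own number, for KO 2 at only 0.0037. That count takes each pair from both sides, so it cannot decide whether the pools are paired. For dim probes the size of a difference depended on the background correction: with none, Acadl gave 0.16 in place of 0.45 and Idi1 0.13 in place of 0.39.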

Other observations

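Probes of the same gene often differed in sign. Of all member probes only 1, of Acadl, had an unadjusted p under 0.05 in limma. The other signs are thus not resolved from 0. Whether the probes of a gene truly differ was not tested, and no share over all genes was taken. Of 10 member genes with more than 1 tested probe, 7 had differences of both signs: Fdps, Insig1, Srebf2, Elovl1, Fads2, Cpt2 and Acadl. The range was widest for Srebf2, from -0.41 to 0.16, and for Fdps, from -0.41 to 0.14. Sqle, Nsdhl and Acadvl had 1 sign on all tested probes.

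Outside the member set, 7 of 60 tested probes of fatty acid oxidation and uptake genes had an unadjusted p under 0.05. The share over all tested probes was 7.58%. Of these 7, 5 were dimmer probes, which did not stand for their genes, 3 higher and 2 lower in KO. They were chosen after their values were seen, and none passed (adjusted p = 0.582 for each). The dimmest probe of Acaa2, a mitochondrial thiolase, read 8.11, 7.93 and 7.66 in KO and 6.52, 7.57 and 6.31 in WT. Every KO array lay above every WT array, but WT 2 was within 0.095 of KO 3 and far above WT 1 and WT 3 (difference 1.10, SE 0.31; 0.60 without background correction). The brightest Acaa2 probe differed by 0.28. The dimmest probe of Etfa, an electron carrier of fatty acid oxidation, read 10.45, 9.999 and 9.77 in KO and 9.59, 9.47 and 9.19 in WT, with no overlap (0.65, SE 0.21), and the brightest probe differed by 0.25. The dimmer probe of Echs1, a mitochondrial enoyl-CoA hydratase, read 6.13, 6.51 and 6.85 in KO and 7.20, 6.66 and 7.25 in WT (-0.54, SE 0.24), while the brighter probe differed by 0.16. A dimmer probe of Abcd3, a peroxisomal transporter, read 5.99, 6.07 and 6.80 in KO and 7.16, 6.74 and 7.12 in WT (-0.72, SE 0.24), while the brightest probe differed by 0.098. The dimmer probe of Abcd2, a related transporter, was detected on all 3 KO arrays and on no WT array, so no difference is given.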
